A study of Mus musculus with 36 samples.

Results

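The 39 genes described here encode proteins that copy DNA and divide cells. They were chosen by a list of gene symbols, which was matched to Ensembl gene IDs through the names in GENCODE M21, and all 39 were found among the 55487 genes of the deposited count table. RNA sequencing libraries had been made from the dorsal root ganglion (DRG), which holds the cell bodies of sensory neurons, and from the dorsal spinal cord, where those neurons end. Female mice were either knockout (KO) for a gene that is not named here or wild type (WT). They were taken after spared nerve injury (SNI), a model of neuropathic pain in which some branches of the sciatic nerve are cut and another is left intact, or were naive, with no operation stated. Each tissue had 4 KO SNI, 4 WT SNI, 5 naive KO and 5 naive WT libraries, which makes 8 groups and 36 libraries. Strain, age, the time after injury and pooling were not given in the labels, nor was it stated that each library came from its own animal, so p values measure the spread between libraries, which may in part be technical.

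Depth ran from 21.34 to 27.27 M estimated reads per library. Levels are given in CPM, counts relative to library sizes that were scaled by the trimmed mean of M values (TMM). Differences are log2 fold changes ± standard error from edgeR's quasi-likelihood test, and a gene is said to have risen or fallen when its Benjamini-Hochberg adjusted p over all genes tested was under 0.05. Libraries A2 and A4, naive KO DRG by their genotype field and column names, are wild type in their titles. Counts of called members in comparisons with naive KO DRG are therefore also given without both. Other results that rest on naive KO DRG were not given without both. The sensory neuron gene Avil was at 385 to 755 CPM in naive DRG and below 1 CPM in naive cord, while Gad1 of inhibitory cord neurons was at 0.53 to 1.52 CPM in naive DRG and 242 to 259 CPM in naive cord.

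A dividing cell passes through a fixed sequence of steps. In the gap before replication, MCM proteins are loaded onto DNA as the replicative helicase, and transcription factors of the E2F family switch on genes for replication and nucleotide supply. Cyclin-dependent kinase 1 with cyclins A and B then drives mitosis, in which kinases and motor proteins build the spindle, a checkpoint holds the cell until chromosomes are attached, and the anaphase promoting complex releases them by marking cyclin B and other proteins for destruction. Genes of the later steps are repressed in resting cells through a cell cycle homology region bound by the DREAM complex and activated through CCAAT boxes bound by NF-Y. Adult neurons do not divide, so in nervous tissue these transcripts are known mainly from glia, immune cells, blood vessels and blood-forming cells.

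Promoter sequence is shown for 6 members, because their values below follow different courses and their start regions differ in the letters they hold. Each run is the 250 bases before the annotated start, read 5′ to 3′ on the strand of the gene, from RefSeq on build GRCm38.p6. Capitals mark the letters TTTGAA of the cell cycle homology region, CCAAT, and the E2F letters TTTCCCGC, TTTGGCGC and TTTCGCGC, on either strand. Mki67 (chr7:135716380-135716629, minus strand) and Top2a (chr11:99024190-99024439, minus strand) encode chromosome proteins of dividing cells, Ccnb1 (chr13:100786487-100786736, minus strand) cyclin B1, Mcm5 (chr8:75109259-75109508, plus strand) and Mcm6 (chr1:128359706-128359955, minus strand) helicase subunits, and Prc1 (chr7:80294226-80294475, plus strand, the later of its 2 entries) a protein that bundles microtubules at the cleavage site.
Mki67: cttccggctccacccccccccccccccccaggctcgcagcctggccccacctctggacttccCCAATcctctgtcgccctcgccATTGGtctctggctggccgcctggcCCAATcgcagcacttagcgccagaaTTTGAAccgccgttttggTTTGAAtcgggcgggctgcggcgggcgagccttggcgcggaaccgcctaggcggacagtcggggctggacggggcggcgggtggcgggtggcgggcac
Top2a: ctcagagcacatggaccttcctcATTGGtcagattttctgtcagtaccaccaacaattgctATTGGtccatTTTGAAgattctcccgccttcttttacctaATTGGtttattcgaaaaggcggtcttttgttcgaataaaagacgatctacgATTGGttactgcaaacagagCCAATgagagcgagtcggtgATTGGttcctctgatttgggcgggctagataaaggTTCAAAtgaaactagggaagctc
Ccnb1: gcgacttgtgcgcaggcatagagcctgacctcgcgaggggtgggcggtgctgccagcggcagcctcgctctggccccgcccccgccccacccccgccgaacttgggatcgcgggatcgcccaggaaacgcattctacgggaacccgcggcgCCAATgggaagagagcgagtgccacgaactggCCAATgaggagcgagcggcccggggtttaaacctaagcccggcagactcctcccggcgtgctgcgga
Mcm5: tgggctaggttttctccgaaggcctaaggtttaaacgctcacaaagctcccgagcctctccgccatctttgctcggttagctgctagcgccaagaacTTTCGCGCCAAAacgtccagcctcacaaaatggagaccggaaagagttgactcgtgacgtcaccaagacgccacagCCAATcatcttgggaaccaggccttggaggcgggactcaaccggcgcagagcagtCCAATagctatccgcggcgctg
Mcm6: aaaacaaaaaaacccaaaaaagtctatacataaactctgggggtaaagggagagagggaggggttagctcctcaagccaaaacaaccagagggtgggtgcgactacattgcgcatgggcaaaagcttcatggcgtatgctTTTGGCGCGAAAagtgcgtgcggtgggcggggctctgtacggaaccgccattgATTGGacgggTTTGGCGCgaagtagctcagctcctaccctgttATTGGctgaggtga
Prc1: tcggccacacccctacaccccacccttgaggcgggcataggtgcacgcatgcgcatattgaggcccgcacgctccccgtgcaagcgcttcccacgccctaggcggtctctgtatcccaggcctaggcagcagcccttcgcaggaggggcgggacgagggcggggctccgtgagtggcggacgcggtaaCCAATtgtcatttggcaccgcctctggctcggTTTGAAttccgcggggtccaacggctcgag

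The windows of Mki67, Top2a and Prc1 hold both TTTGAA and CCAAT, that of Ccnb1 holds CCAAT alone, and those of Mcm5 and Mcm6 hold E2F letters beside CCAAT. Of the 39 members, 33 had a promoter entry of 300 bases, 250 before and 50 after the start. In these windows TTTGAA occurred in 20 of 33 members (60.6%), against 20.2% of 27025 genes with an entry. CCAAT occurred in 28 members (84.8%), against 41.1% of all genes, and both together in 19 members (57.6%), against 7.97%. E2F letters occurred in 5 members (15.2%), which were Cdk1, Mcm3, Mcm5, Mcm6 and Mcm7, against 2.12% of all genes. Matches on both strands counted, also where a CCAAT and a TTTGAA shared a letter, and a match describes the letters only.

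Per kilobase of exon, the mean level in naive WT DRG was highest for Pcna, the sliding clamp of DNA polymerase, with 20.4 CPM per kilobase. Mcm4 followed with 4.69 and Mcm7 with 2.8 CPM per kilobase, both subunits of the helicase. The lowest level was 0.172 CPM per kilobase for Kif2c, a kinesin that takes microtubules apart. Spans of 17 members overlap another annotated gene, and 4 members (Tyms, Pcna, Ccnb1 and Ccnb2) have a processed pseudogene of the same name between which the read estimates may have been split. Pcna-ps2 averaged 10.6 CPM in naive KO DRG and 12.8 CPM in naive WT DRG, and Ccnb2-ps 1.92 CPM in naive KO DRG and 1.91 CPM in naive WT DRG, which is not below Ccnb2 itself (0.782 CPM in naive KO and 1.49 CPM in naive WT), so the level of Ccnb2 is uncertain.

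In naive DRG, all 39 members lay lower in KO than in WT libraries, and 29 of 39 fell. The share of all 19496 genes tested in DRG that fell was 15.4%. The median log2 fold change of the members was -0.54, between -1.78 and -0.07, while the median over all genes was -0.02. In 14 of the 39 every KO library lay below every WT library, which held for 8.86% of all genes. In whole tissue, fewer cells of a type and less RNA per cell cannot be told apart.

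Proteins of the mitotic chromosome had the lowest median log2 fold change of the role groups, -1.67. Mki67 encodes the Ki-67 antigen, a coat of mitotic chromosomes used to stain dividing cells, and lies at chr7:135689784-135716361 (GRCm38, minus strand). It had 3.64, 5.76, 6.49, 5.74 and 4.67 CPM in naive KO DRG, against 16.6, 16.2, 7.71, 12 and 37.3 CPM in naive WT DRG (log2 fold change -1.78 ± 0.34, adjusted p = 0.00209). Every KO value lay below every WT value, and library C1 stood far above the other 4 WT libraries. Top2a, which untangles DNA strands, had 2.44, 3.43, 3.53, 2.66 and 2.54 CPM in naive KO DRG, against 8.18, 6.78, 4.09, 6.13 and 17.8 CPM in naive WT DRG (log2 fold change -1.56 ± 0.31, adjusted p = 0.00254). Here too the genotypes did not overlap, and C1 was again the highest.

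Of the cyclins, the mitotic kinase and their transcription factor, 4 of 5 fell (median -0.74). Ccnb1 had 0.87, 1.01, 0.904, 0.918 and 0.878 CPM in naive KO DRG, against 1.98, 1.46, 1.17, 1.06 and 3.88 CPM in naive WT DRG (log2 fold change -1.07 ± 0.30, adjusted p = 0.0158). The lowest WT value was just above the highest KO value. Cdk1, the kinase that drives mitosis, had 2.4, 2.42, 1.56, 2.2 and 1.52 CPM in naive KO DRG, against 2.37, 4.2, 2.6, 2.78 and 4.92 CPM in naive WT DRG (log2 fold change -0.74 ± 0.24, adjusted p = 0.0286). Its values overlapped through 1 WT library, A1. Foxm1, a transcription factor for mitotic genes, differed by -0.51 ± 0.15 (adjusted p = 0.0227), and Ccnb2, cyclin B2, by -0.94 ± 0.32 (adjusted p = 0.0378). Cyclin A2, encoded by Ccna2, did not pass the test at -0.45 ± 0.21 (adjusted p = 0.111). Exosc9, which overlaps Ccna2 on the other strand, rose by 0.48 ± 0.09 (adjusted p = 0.00136), and reads of that pair cannot be told apart if strand was not used in counting.

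Helicase and fork genes moved less, with a median of -0.34 and 5 of 8 called. Mcm2, a helicase subunit at chr6:88883474-88898780 (minus strand), had 4.47, 4.25, 6, 5.14 and 5.04 CPM in naive KO DRG, against 8.13, 7.03, 6.29, 6.8 and 8.09 CPM in naive WT DRG. It had the lowest adjusted p of all members (log2 fold change -0.54 ± 0.10, adjusted p = 0.00144), and its highest KO value stayed below its lowest WT value. Mcm5 had 3.77, 4.02, 3.53, 4.13 and 3 CPM in naive KO DRG, against 5.94, 5.12, 4.46, 5.25 and 6.7 CPM in naive WT DRG (log2 fold change -0.57 ± 0.12, adjusted p = 0.00309), also with no overlap. Pcna had 35.1, 43.3, 38.3, 40.1 and 36.3 CPM in naive KO DRG, against 44.8, 52, 45, 48.7 and 54.2 CPM in naive WT DRG (log2 fold change -0.34 ± 0.09, adjusted p = 0.0119). That is a small difference in an abundant transcript, with the groups just separate. Mcm3 and Mcm7 fell by 0.64 and 0.33 on the log2 scale, while Mcm4, Mcm6 and Cdc45, the helicase activator, had log2 fold changes between -0.15 and -0.07 and did not pass the test. The nucleotide supply genes all fell, with log2 fold changes for Rrm2 of ribonucleotide reductase of -1.27 ± 0.26 (adjusted p = 0.00261), for the thymidine kinase gene Tk1 of -0.51 ± 0.11 (adjusted p = 0.00471) and for the thymidylate synthase gene Tyms of -0.29 ± 0.09 (adjusted p = 0.0282).

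Among the 6 mitotic kinases and checkpoint genes, 3 fell. Bub1b, a checkpoint protein that restrains the anaphase promoting complex, had 0.663, 0.549, 0.493, 0.597 and 0.323 CPM in naive KO DRG, against 1.33, 1.62, 0.841, 0.883 and 2.67 CPM in naive WT DRG (log2 fold change -1.48 ± 0.30, adjusted p = 0.0025). No KO library reached a WT library at these low levels. Bub1, its partner kinase at kinetochores, and Aurkb, the kinase of the chromosomal passenger complex, fell by 1.12 and 1.16 on the log2 scale. Aurka, Plk1 and Ttk, kinases of the spindle poles, of mitotic entry and of the checkpoint, had log2 fold changes between -0.35 and -0.17 and did not pass. The 3 genes grouped here with the anaphase promoting complex fell. They were Cdc20, an activator of that complex (-0.76 ± 0.24), Ube2c, its ubiquitin-conjugating enzyme (-1.54 ± 0.40), and Cdca3 (-0.53 ± 0.18). Both further passenger complex genes, Birc5 (survivin) and Cdca8 (borealin), fell by 0.59 and 0.61 on the log2 scale.

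Of 10 genes of the spindle, kinetochore and cytokinesis, 7 fell. Kif23, the kinesin of the central spindle at chr9:61915905-61946774 (minus strand), had 5.18, 8.64, 5.01, 5.74 and 6.47 CPM in naive KO DRG, against 8.56, 10.6, 10.6, 10.9 and 13 CPM in naive WT DRG (log2 fold change -0.79 ± 0.15, adjusted p = 0.00161). Library A4 was the only KO library that reached the WT values. The kinetochore genes Cenpf and Cenpe differed by -1.09 ± 0.30 and -0.86 ± 0.21, the cleavage kinesin gene Kif20a by -0.70 ± 0.19, Prc1 by -0.54 ± 0.16, and the spindle assembly genes Hmmr and Tpx2 by -0.53 ± 0.18 and -0.47 ± 0.14. Kif11, Nusap1 and Kif2c had log2 fold changes between -0.54 and -0.36 with adjusted p from 0.0935 to 0.145.

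**Figure D1:**
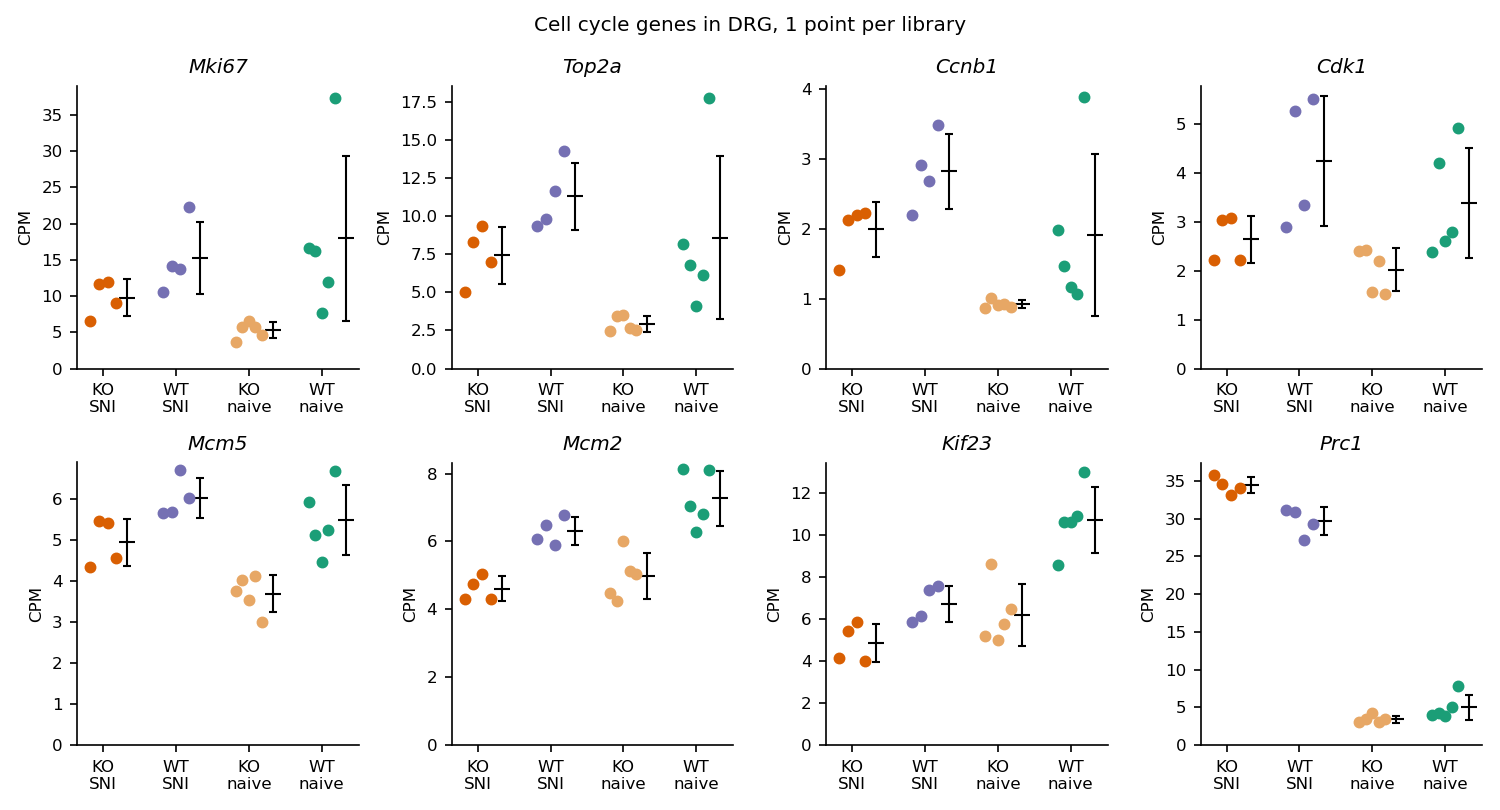
CPM of 8 cell cycle genes in each DRG library (points), with the mean and SD of each group (bar and whiskers), for KO SNI (4), WT SNI (4), naive KO (5) and naive WT (5). Naive KO libraries are the lowest for Mki67, Top2a and Ccnb1, and Prc1 is at 27.2 to 35.8 CPM in SNI libraries and at 3.02 to 7.84 CPM in naive ones.

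**Figure D2:**
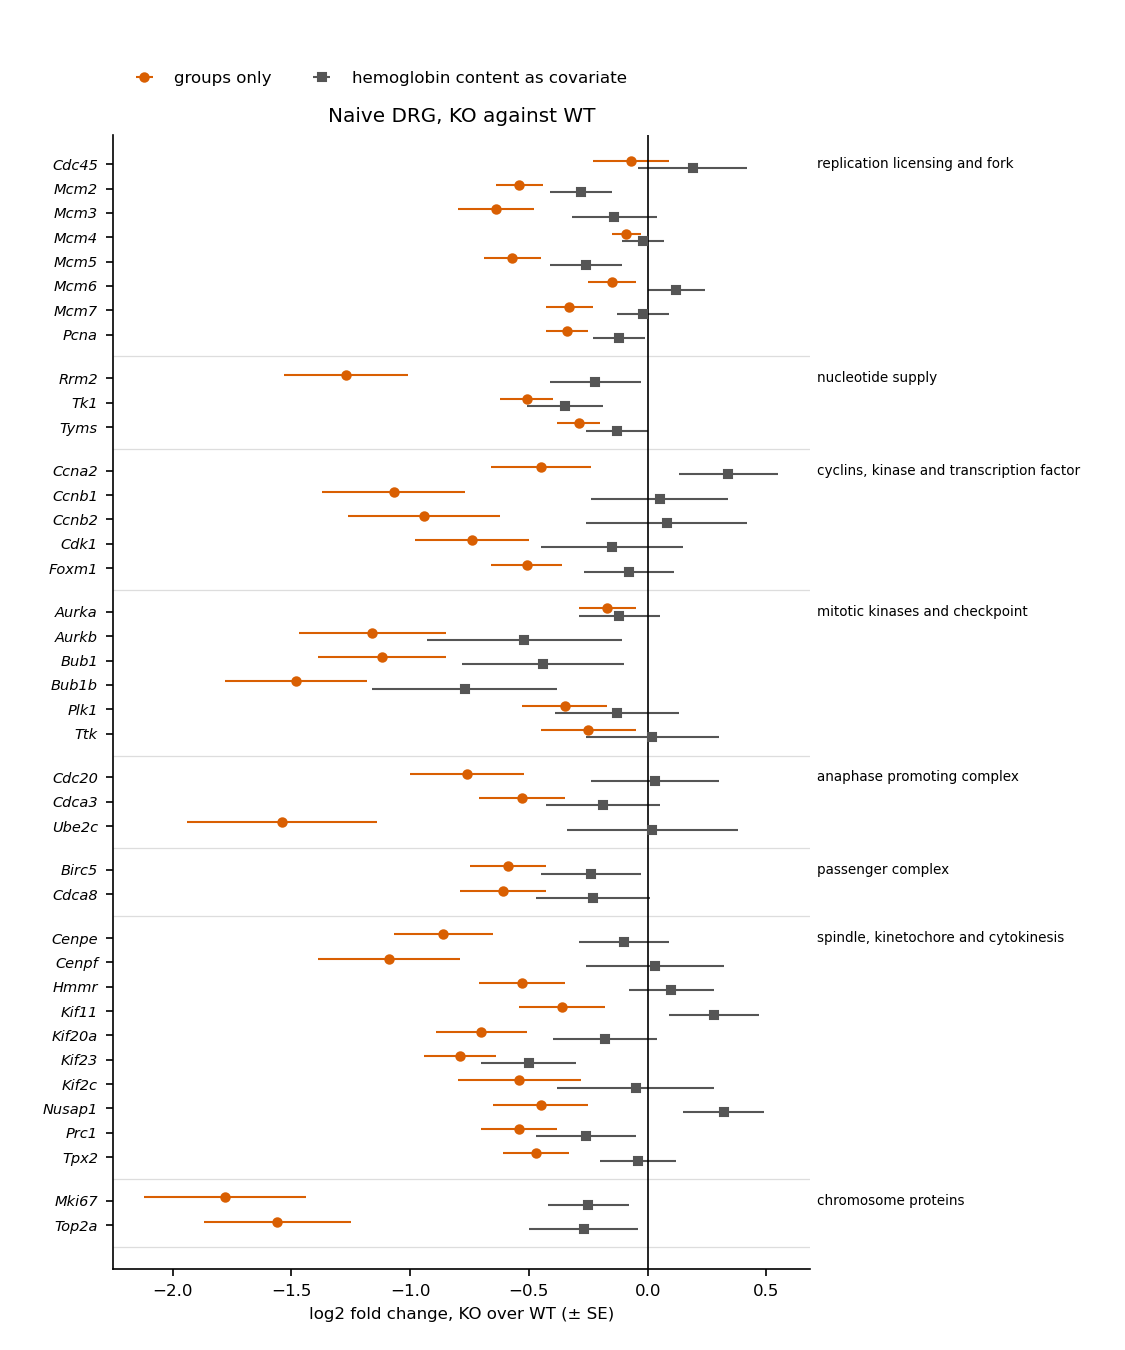
Log2 fold change of naive KO over naive WT DRG with its standard error for the 39 genes, grouped by role, from the fit with groups only (circles) and with hemoglobin content as a covariate (squares). All 39 circles lie below 0 with a median of -0.54, and the squares have a median of -0.12.

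These values moved together with the hemoglobin content of the libraries. Hemoglobin transcripts come from red blood cells and their precursors, and the precursors divide. The summed level of Hba-a1, Hba-a2, Hbb-bs and Hbb-bt was 190 to 602 CPM in naive KO DRG (median 420), against 728 to 3500 CPM in naive WT DRG (median 1540). These ranges do not overlap, so in naive DRG genotype and hemoglobin content cannot be told apart. All 4 hemoglobin genes fell in naive KO DRG, from -2.32 ± 0.49 for Hba-a2 to -1.94 ± 0.46 for Hbb-bs, and so did 12 of 14 erythroid precursor genes measured, with a median of -2.19. Gata1, the erythroid transcription factor, lay at 0.0414 to 0.413 CPM in naive KO DRG and 0.439 to 1.32 CPM in naive WT DRG. The summed level of the 14 was 237 to 266 CPM in naive KO DRG, against 272 to 414 CPM in naive WT DRG. Most of that sum was a single gene, Tfrc, whose values overlapped (229 to 247 CPM in naive KO, 229 to 275 CPM in naive WT). Tfrc was also at 181 to 221 CPM in naive WT cord, so the sum is a poor measure of erythroid content. Of 12 neutrophil granule genes 10 fell (sums 29.5 to 95.9 CPM in naive KO, 97.8 to 549 CPM in naive WT), and of 6 neutrophil precursor genes tested 4 fell (sums over 7 genes 4.02 to 10.7 CPM in naive KO, 10.3 to 23.3 CPM in naive WT). Macrophage genes fell in 6 of 10 cases (sums 99.8 to 180 CPM in naive KO, 143 to 272 CPM in naive WT), and Schwann cell genes in 0 of 6. Endothelial and fibroblast genes fell in 3 of 5 cases each (medians -0.34 and -0.47), with endothelial sums of 66.4 to 72.8 CPM in naive KO and 68.0 to 93.6 CPM in naive WT, and fibroblast sums of 1570 to 1940 CPM in naive KO and 1800 to 3160 CPM in naive WT. Of 5 blood stem and progenitor genes tested, 3 fell and 2 rose (sums over 6 genes 182 to 192 CPM in naive KO, 179 to 217 CPM in naive WT). B cell precursor genes fell in 3 of 6 cases tested (sums over 12 genes 134 to 145 CPM in naive KO, 130 to 151 CPM in naive WT). The sums of both lists overlapped. Listed microglia genes fell in 3 of 7 cases, while 2 of 6 sensory neuron genes rose (sums 2800 to 3210 CPM in naive KO, 1850 to 2890 CPM in naive WT). The part of these cell types in the fall of the cell cycle genes was not tested.

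Within groups, too, DRG libraries with more hemoglobin had higher cell cycle levels. The mean of log2(CPM + 1) over the 39 members, taken as a score of a library, had a Pearson r of 0.891 and a Spearman rho of 0.936 with log2 hemoglobin content over 18 DRG libraries after each group's mean was removed. Without A2 and C1, the libraries farthest from the median hemoglobin content, r was 0.947. Across naive libraries r was 0.871 (n = 10), across SNI libraries 0.965 (n = 8), across KO libraries 0.849 (n = 9) and across WT libraries 0.956 (n = 9). Single members had r between 0.122 for Aurka and 0.933 for Mki67 with a median of 0.65. None of the 39 was below 0, 27 were above 0.5, and 6 were above 0.8, namely Mki67, Rrm2, Nusap1, Top2a, Ube2c and Cenpe. Over all 19496 genes tested in DRG the median r was 0.004, 14.6% were above 0.5 and 0.964% above 0.8.

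Permutation tests (two-sided, 100000 resamples, adjusted over 8 relations) were made for 4 members in each tissue. In DRG, Mki67 had r = 0.933 and rho = 0.942 with a permutation p of 1e-05 for each, the smallest these resamples can give (adjusted 8e-05). Its log2 level rose by 0.654 for each doubling of hemoglobin. Ccnb1 had r = 0.788 (permutation p = 3e-05, adjusted 0.00012) and rho = 0.701 (p = 0.00166, adjusted 0.00664). Mcm5 had r = 0.651 (permutation p = 0.00387, adjusted 0.0103) and rho = 0.624 (p = 0.00706, adjusted 0.0188). Pcna had r = 0.567 (permutation p = 0.0146, adjusted 0.0292) and rho = 0.558 (p = 0.018, adjusted 0.0361). Without A2 and C1 the r values were 0.924 for Mki67, 0.791 for Ccnb1, 0.636 for Mcm5 and 0.441 for Pcna. Prc1 differed from the other spindle genes: its r of 0.432 became -0.26 without these libraries, so it rested on them.

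In the cord the score had r = 0.116 and rho = 0.329 with hemoglobin content, and members ranged from -0.683 for Hmmr to 0.447 for Aurka with a median of 0.037. Of the 4 members tested there, r was 0.271 for Mki67 (permutation p = 0.282), 0.264 for Ccnb1 (permutation p = 0.295), 0.037 for Mcm5 (permutation p = 0.885) and 0.206 for Pcna (permutation p = 0.401), with adjusted values of 0.393 to 0.885. Hemoglobin content was lower there, at 136 to 170 CPM in naive KO cord and 169 to 478 CPM in naive WT cord. In all 5 naive KO cord libraries, 2 of 14 erythroid precursor genes (1 of them Gata1) were at 0. Of 7 neutrophil precursor genes 1 was at 0, Elane. Others were measured there, such as Epor of the erythroid list at 1.26 to 2.04 CPM and Prtn3 of the neutrophil list at 0.452 to 1.05 CPM.

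With hemoglobin content as a covariate in the DRG fit, 0 of 39 members differed between naive KO and naive WT DRG, and the members' median was -0.12. Of all 19496 genes, 1.64% fell in that fit. Mki67 then stood at -0.25 ± 0.17 (adjusted p = 0.62), Kif23 at -0.50 ± 0.20 (adjusted p = 0.245) and Bub1b at -0.77 ± 0.39 (adjusted p = 0.417). Because the naive genotypes do not overlap in hemoglobin content, genotype and hemoglobin cannot be told apart in this fit either. Without A2 and A4, 13 of 39 members fell, and without library C1, which had the highest hemoglobin content at 3500 CPM, 19 fell.

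**Figure D3:**
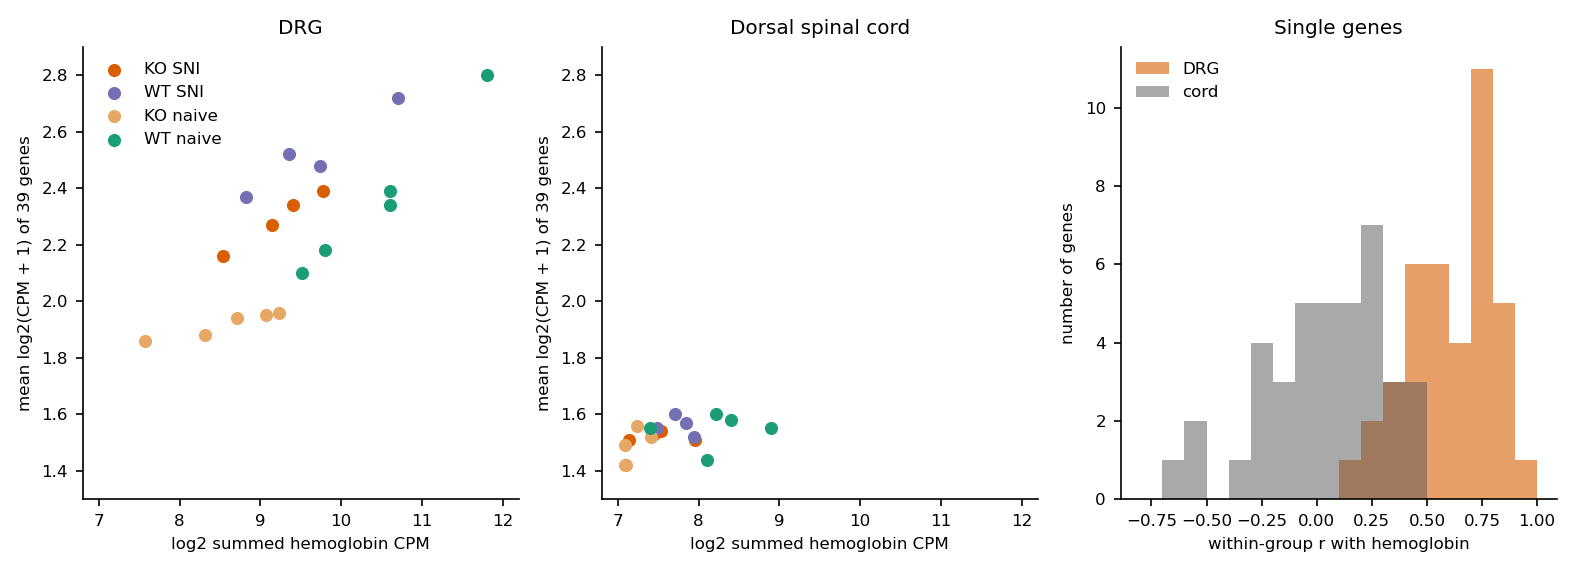
Left and middle: mean log2(CPM + 1) of the 39 genes against log2 summed hemoglobin CPM, 1 point per library, in DRG and in dorsal spinal cord, coloured by group. Right: number of genes by within-group Pearson r with hemoglobin content in DRG (median 0.65) and in cord (median 0.037); DRG points climb with hemoglobin and SNI libraries lie above naive ones at like hemoglobin.

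After SNI, where hemoglobin content overlapped between the genotypes (372 to 872 CPM in KO, 452 to 1610 CPM in WT), 1 of 39 members differed between KO and WT DRG. Genes that fell made up 2.71% of all genes tested in this comparison. The member was Mcm2, with 4.31, 4.75, 5.05 and 4.3 CPM in KO SNI DRG, against 6.08, 6.47, 5.89 and 6.79 CPM in WT SNI DRG (log2 fold change -0.46 ± 0.12, adjusted p = 0.0258). All 4 KO libraries lay below all 4 WT libraries, as in naive DRG, and with hemoglobin as a covariate Mcm2 stood at -0.40 ± 0.10 (adjusted p = 0.0242). The call for Mcm2 was lost with the title letter or the column number as a block, and in turn without KO libraries E2, E4 or F4 or WT libraries E3 or F3, with log2 fold changes of -0.48 to -0.42. In all, 36 of 39 members were lower in KO SNI DRG with a median of -0.31, against a median of 0.009 over all genes, and 12 had an unadjusted p under 0.05, 11 of them lower, where 11.0% of all genes were lower at that p.

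Among members that did not pass the test, Mki67 had 6.53, 11.7, 11.9 and 9.06 CPM in KO SNI DRG, against 10.6, 14.2, 13.8 and 22.3 CPM in WT SNI DRG (log2 fold change -0.64 ± 0.37, adjusted p = 0.325). Kif2c had 1.07, 0.904, 0.935 and 1.57 CPM in KO SNI DRG, against 1.7, 1.95, 1.67 and 2.41 CPM in WT SNI DRG (log2 fold change -0.78 ± 0.25, adjusted p = 0.0745), and Bub1b had 0.896, 0.769, 0.935 and 0.832 CPM in KO SNI DRG, against 1.36, 1.91, 1.99 and 1.25 CPM in WT SNI DRG (log2 fold change -0.92 ± 0.31, adjusted p = 0.0991). The genotypes overlapped for Mki67 and were separate for Kif2c and Bub1b, yet none of the 3 passed the test. Prc1 was higher in each KO SNI library than in each WT SNI library by value, at 0.22 ± 0.15 (adjusted p = 0.408).

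After injury some of the cell cycle genes rose in DRG, 14 of 39 in KO and 4 of 39 in WT. Of all genes, 15.1% rose in KO and 12.6% in WT, so the WT count was near the share of all genes. Prc1 had the largest log2 fold change of the 39 in both genotypes. Prc1, at chr7:80294450-80316259 (plus strand), had 35.8, 34.6, 33.2 and 34.1 CPM in KO SNI DRG, against 3.02, 3.43, 4.19, 3.03 and 3.42 CPM in naive KO DRG (log2 fold change 3.33 ± 0.16, adjusted p = 1.74e-11). In WT it had 31.2, 30.9, 27.2 and 29.3 CPM after SNI, against 3.92, 4.2, 3.84, 5.07 and 7.84 CPM in naive DRG (log2 fold change 2.57 ± 0.15, adjusted p = 4.75e-10). The lowest SNI library had more than 3 times the CPM of the highest naive library in either genotype. Rccd1, which overlaps Prc1 on the other strand, moved the other way, at -0.43 ± 0.15 in KO (adjusted p = 0.0326) and -0.33 ± 0.14 in WT (adjusted p = 0.0983). In the cord Prc1 had 1.64, 2.54, 1.85 and 1.45 CPM after SNI in KO, against 2.1, 1.85, 1.55, 2.03 and 1.7 CPM in naive KO, and 2.66, 1.77, 2.57 and 2.07 CPM after SNI in WT, against 2.81, 3.26, 2.26, 2.18 and 3.39 CPM in naive WT, with overlap in both genotypes.

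In KO DRG, 14 of 39 members rose after SNI and 0 fell, with a median of 0.42, against 0.012 over all genes. The share of all genes that rose in KO DRG was 15.1%. After Prc1 the lowest adjusted p values belonged to Mcm6, with 14.6, 15.1, 15.9 and 14.5 CPM in KO SNI DRG, against 9.52, 9.78, 10.9, 10.8 and 8.73 CPM in naive KO DRG (log2 fold change 0.60 ± 0.10, adjusted p = 0.000272). Cenpf had 3.54, 5.88, 5.23 and 5.55 CPM in KO SNI DRG, against 1.33, 2.01, 1.81, 1.74 and 1.71 CPM in naive KO DRG (log2 fold change 1.55 ± 0.31, adjusted p = 0.00101). Neither gene's SNI libraries overlapped the naive ones. Kif20a had 3.75, 3.12, 4.25 and 3.7 CPM in KO SNI DRG, against 2.03, 1.69, 2.71, 1.74 and 1.8 CPM in naive KO DRG (log2 fold change 0.89 ± 0.20, adjusted p = 0.002), but Cdc23, which overlaps it on the other strand, also rose, at 0.84 ± 0.04 (adjusted p = 3.74e-11), and reads of the pair cannot be told apart if strand was not used in counting.

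Top2a had 5.03, 8.32, 9.39 and 6.98 CPM in KO SNI DRG, against 2.44, 3.43, 3.53, 2.66 and 2.54 CPM in naive KO DRG (log2 fold change 1.34 ± 0.33, adjusted p = 0.0047), and Ccnb1 had 1.41, 2.12, 2.2 and 2.22 CPM in KO SNI DRG, against 0.87, 1.01, 0.904, 0.918 and 0.878 CPM in naive KO DRG (log2 fold change 1.11 ± 0.32, adjusted p = 0.0121). Mcm5 had 4.35, 5.47, 5.42 and 4.57 CPM in KO SNI DRG, against 3.77, 4.02, 3.53, 4.13 and 3 CPM in naive KO DRG (log2 fold change 0.42 ± 0.13, adjusted p = 0.0168). All 3 genes were separate between injured and naive KO libraries. Mcm3, Mcm7, Foxm1, Aurkb, Aurka, Cenpe and Kif2c also rose, by 0.32 to 1.1 on the log2 scale. Mki67 was higher in each SNI library than in each naive KO library but did not pass the test at 0.89 ± 0.37 (adjusted p = 0.0787). Cdk1 had 2.22, 3.03, 3.08 and 2.22 CPM in KO SNI DRG, against 2.4, 2.42, 1.56, 2.2 and 1.52 CPM in naive KO DRG (log2 fold change 0.38 ± 0.26, adjusted p = 0.296), and Pcna had 37.6, 42.5, 43.1 and 43.9 CPM in KO SNI DRG, against 35.1, 43.3, 38.3, 40.1 and 36.3 CPM in naive KO DRG (log2 fold change 0.11 ± 0.10, adjusted p = 0.421), both with overlap. Without A2 and A4, 10 members rose.

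In WT DRG, 4 of 39 members rose after SNI and 2 fell, with a median of 0.13, against -0.011 over all genes. Of all genes, 12.6% rose and 12.3% fell, so neither count of members exceeded the share of all genes. The risers were Prc1, Kif2c, Mcm6 and Cenpf. Kif2c had 1.7, 1.95, 1.67 and 2.41 CPM in WT SNI DRG, against 0.602, 1.08, 0.622, 0.485 and 0.962 CPM in naive WT DRG (log2 fold change 1.35 ± 0.24, adjusted p = 0.000293), with no overlap. Mcm6 differed by 0.32 ± 0.10 (adjusted p = 0.029) and Cenpf by 0.85 ± 0.29 (adjusted p = 0.0392), and both overlapped naive libraries through C1. Kif23 fell: it had 5.87, 6.12, 7.36 and 7.56 CPM in WT SNI DRG, against 8.56, 10.6, 10.6, 10.9 and 13 CPM in naive WT DRG (log2 fold change -0.67 ± 0.16, adjusted p = 0.00388), and every SNI value lay below every naive one. Tk1 had 3.64, 3.69, 4.35 and 4.94 CPM in WT SNI DRG, against 5.25, 5.62, 5.15, 5.16 and 6.09 CPM in naive WT DRG (log2 fold change -0.39 ± 0.12, adjusted p = 0.0204), also without overlap.

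Both chromosome proteins failed the test in WT. Mki67 had 10.6, 14.2, 13.8 and 22.3 CPM in WT SNI DRG, against 16.6, 16.2, 7.71, 12 and 37.3 CPM in naive WT DRG (log2 fold change -0.24 ± 0.34, adjusted p = 0.668), and Top2a had 9.39, 9.85, 11.7 and 14.3 CPM in WT SNI DRG, against 8.18, 6.78, 4.09, 6.13 and 17.8 CPM in naive WT DRG (log2 fold change 0.39 ± 0.30, adjusted p = 0.392). The SNI values of each gene lay inside the range of the naive ones, and C1 was the highest library of all for each. Ccnb1 stood at 0.55 ± 0.28 (adjusted p = 0.181), Cdk1 at 0.33 ± 0.24 (adjusted p = 0.363), Mcm5 at 0.13 ± 0.12 (adjusted p = 0.488) and Pcna at -0.06 ± 0.10 (adjusted p = 0.723). Without C1, 10 members passed the test in WT, of which 8 rose and 2 fell.

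The KO and WT comparisons of injury were set against each other by their interaction, in which 0 of 39 members passed edgeR's test (smallest adjusted p = 0.632) and 5 of all 19496 genes did. DESeq2 and the fit without A2 and A4 also called 0 members. At an unadjusted p under 0.05 there were 5 members, Prc1, Aurka, Tk1, Mki67 and Top2a, all with a higher signed log2 change in KO, as had 4.08% of all genes at that p. Of these, Tk1 fell in WT and hardly moved in KO, with means of 3.85 CPM in KO SNI and 3.83 CPM in naive KO DRG. The rise of 14 members in KO and of 4 in WT is thus not shown to differ. Naive KO libraries are part of both the genotype comparison in naive DRG and the injury comparison in KO, so these counts are not independent.

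Hemoglobin content after SNI was 372 to 872 CPM in KO DRG, against 190 to 602 CPM in naive KO, and 452 to 1610 CPM in WT DRG, against 728 to 3500 CPM in naive WT. At overlapping hemoglobin content the injured libraries had the higher member scores: 2.16 in KO SNI library E2 with 372 CPM hemoglobin, against 1.96 in naive KO library B4 with 602 CPM. All 4 KO SNI scores (2.16 to 2.39) lay above all 5 naive KO scores (1.86 to 1.96). In WT the scores were 2.37 to 2.72 after SNI and 2.1 to 2.8 in naive DRG, and the highest SNI score belonged to F3 with 1610 CPM hemoglobin. With hemoglobin content as a covariate, 12 members rose and 1 fell after SNI in KO (median 0.30), and 16 rose and 1 fell in WT (median 0.37), with 14.9% of all genes rising in KO and 14.2% in WT. In that fit Top2a stood at 1.02 ± 0.17 in WT (adjusted p = 0.000188) and Mki67 at 0.49 ± 0.13 (adjusted p = 0.00829). The member that fell was Kif23 in each genotype.

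**Figure D4:**
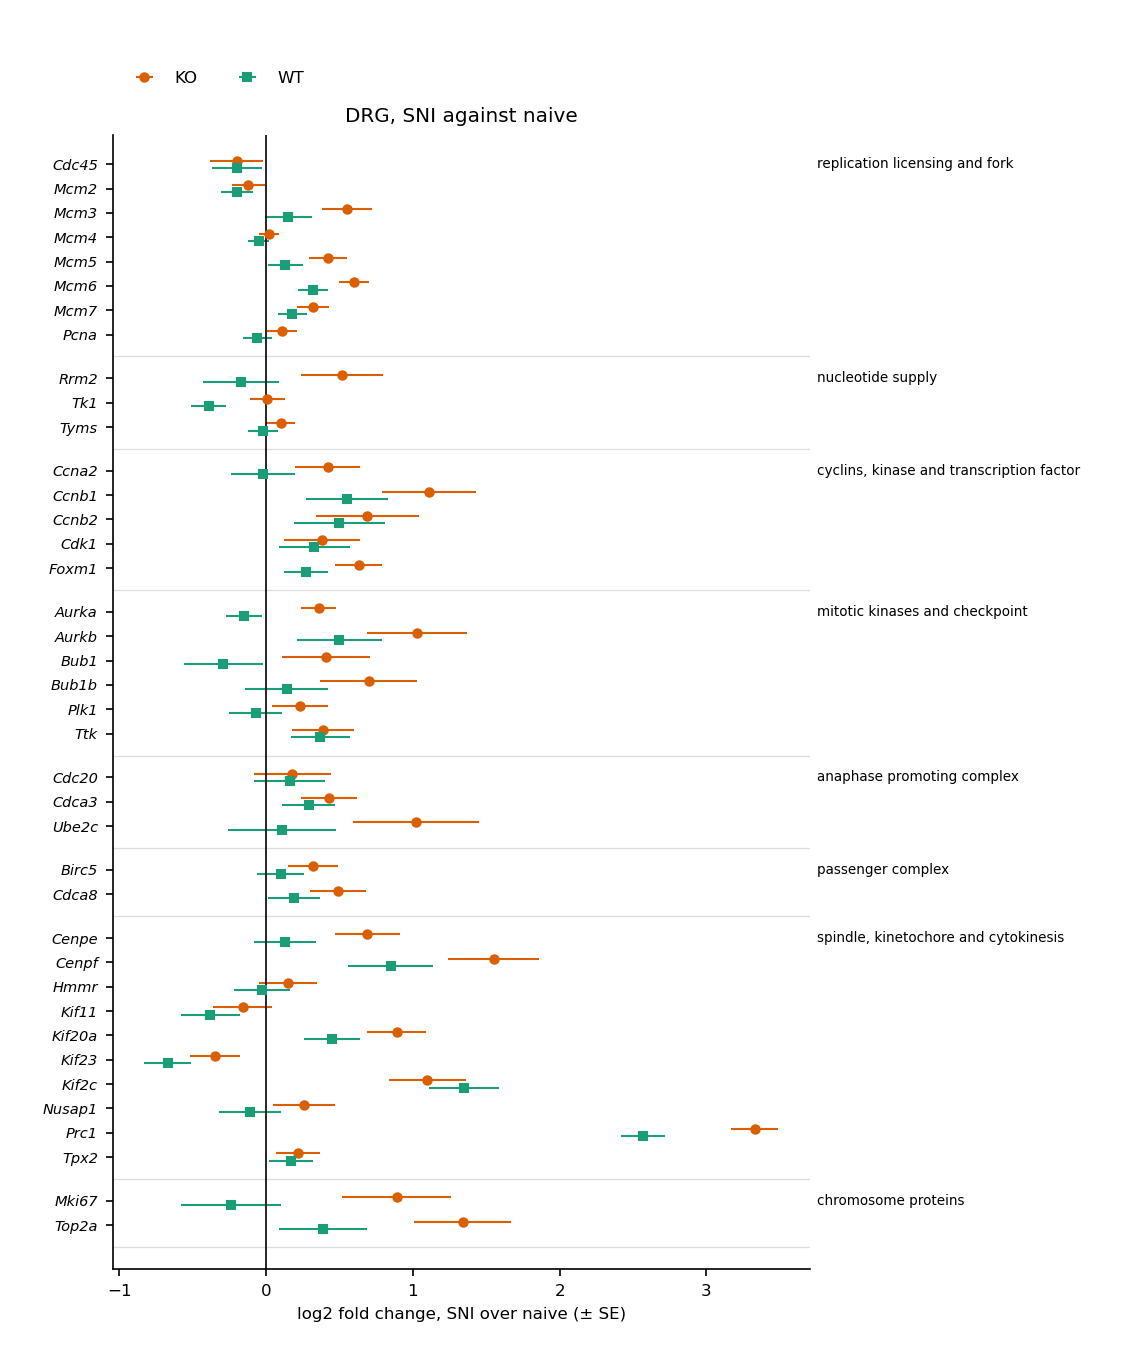
Log2 fold change of SNI over naive DRG with its standard error for the 39 genes, grouped by role, in KO (circles) and in WT (squares). Prc1 lies farthest right at 3.33 in KO and 2.57 in WT, and Kif23 lies below 0 in both.

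Macrophage transcripts also rose with injury: 10 of 10 listed genes rose in KO DRG and 9 of 10 in WT DRG, with sums of 365 to 520 CPM in KO SNI, against 99.8 to 180 CPM in naive KO, and 401 to 714 CPM in WT SNI, against 143 to 272 CPM in naive WT. Csf1r, the growth factor receptor of macrophages, differed by 1.69 ± 0.17 in KO and 1.41 ± 0.17 in WT. Sensory neuron genes fell in 4 of 6 cases in KO and in 2 of 6 in WT, while 1 of 6 Schwann cell genes rose and 0 fell in each. Of the listed microglia genes, 5 of 7 rose in each genotype, and of the hemoglobin genes 0 of 4 passed the test in either. The part of these cells in the rise of the cell cycle genes was not tested.

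Of 81 other cell cycle genes outside the 39, 37 (45.7%) fell and 0 rose in naive KO against naive WT DRG, with a median of -0.36, where 15.4% of all genes fell. The lowest adjusted p values belonged to Pttg1, the securin that guards chromatid cohesion (log2 fold change -2.66 ± 0.27, adjusted p = 2.69e-06), Mad2l1 of the spindle checkpoint (log2 fold change -0.83 ± 0.08, adjusted p = 2.76e-06) and Cenpa, the centromere histone (log2 fold change -1.48 ± 0.22, adjusted p = 0.00017). Between KO SNI and WT SNI DRG, 3 of the 81 (3.7%) fell and 1 (1.23%) rose, near the shares of all genes, 2.71% and 2.39%. Those that fell were Pttg1 (-1.51 ± 0.29), Mad2l1 (-0.65 ± 0.10) and Ncapg of the condensin complex (-1.01 ± 0.21). The cyclin D kinase gene Cdk6 rose by 0.46 ± 0.11. After SNI, 23 of the 81 (28.4%) rose and 7 (8.64%) fell in KO (median 0.30), where 15.1% of all genes rose and 13.3% fell. In WT, 6 (7.41%) rose and 4 (4.94%) fell (median 0.04), both below the shares of all genes, 12.6% and 12.3%. Kif22, a kinesin that binds chromosomes, rose by 1.65 ± 0.10 in KO and 1.53 ± 0.10 in WT, and Plk4, the kinase of centriole duplication, by 0.66 ± 0.09 in KO and 0.49 ± 0.09 in WT. Dut, which keeps uracil out of DNA, was among those that fell, at -0.51 ± 0.08 in KO and -0.39 ± 0.08 in WT.

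Of 15 genes that restrain the cell cycle, 6 (40.0%) rose and 2 (13.3%) fell with injury in KO DRG, where 15.1% of all genes rose and 13.3% fell. In WT DRG, 7 (46.7%) rose and 1 (6.67%) fell, where 12.6% of all genes rose and 12.3% fell. The rest did not pass the test. Gadd45a, a DNA damage response gene that restrains the cycle, rose by 2.56 ± 0.11 in KO (adjusted p = 5.47e-12) and 2.46 ± 0.11 in WT (adjusted p = 1.29e-11). Cdkn1a, which encodes the p21 inhibitor of cyclin-dependent kinases, rose by 1.46 ± 0.10 in KO and 1.41 ± 0.10 in WT, and the antiproliferative gene Btg1 by 0.45 ± 0.06 in KO and 0.44 ± 0.06 in WT. In naive DRG, 2 of 15 (13.3%) fell in KO against WT, a share below the 15.4% of all genes. These were the cyclin D kinase inhibitors Cdkn2c (-0.57 ± 0.16) and Cdkn2a (-0.79 ± 0.26).

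In the dorsal spinal cord, 36 of the 39 members passed the filter on low counts (Aurkb, Bub1 and Bub1b did not). Between naive KO and naive WT cord, 3 of 36 fell and 0 rose, with a median of -0.12, against -0.006 over all genes. Of all 18843 genes tested in cord, 9.94% fell, a share above that of the members. Prc1, with the cord values given above, differed by -0.59 ± 0.17 (adjusted p = 0.017). Every naive KO value was below every naive WT value. Mcm5 had 2.24, 2.35, 2.73, 2.34 and 2.19 CPM in naive KO cord, against 3.98, 3.44, 3.06, 2.79 and 3.22 CPM in naive WT cord (log2 fold change -0.48 ± 0.14, adjusted p = 0.0188), likewise separate. Tpx2, which nucleates spindle microtubules, had 3.31, 2.49, 2.87, 2.68 and 2.63 CPM in naive KO cord, against 2.81, 4.24, 3.41, 4.37 and 3.7 CPM in naive WT cord (log2 fold change -0.41 ± 0.13, adjusted p = 0.0301), with overlap. Mki67 had 2.19, 2.17, 2.14, 1.56 and 1.38 CPM in naive KO cord, against 3.03, 2.94, 1.77, 2.63 and 2.7 CPM in naive WT cord (log2 fold change -0.47 ± 0.17, adjusted p = 0.0581). Hemoglobin genes fell in 3 of 4 cases in the same comparison. With hemoglobin content as a covariate 0 of 36 members passed, and calls over all genes went from 3718 to 390. The members' median was then -0.09. Hemoglobin content hardly overlapped between naive KO cord (136 to 170 CPM) and naive WT cord (169 to 478 CPM). That fit can thus hardly tell genotype and hemoglobin content apart. Leaving out naive WT library B5 gave 5 calls.

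No member passed edgeR's test in cord between KO SNI and WT SNI, between SNI and naive in KO or in WT, or in the interaction, and DESeq2 called 0 in each. At an unadjusted p under 0.05 there were 5 of 36 between KO SNI and WT SNI (19.7% of all genes), 3 between SNI and naive in KO (14.5% of all genes), 0 in WT (11.1%) and 0 in the interaction (6.1%), so none of these shares exceeded that of all genes. Leaving out KO SNI library F6 or WT SNI library F7 gave 1 call between KO SNI and WT SNI. Mki67 had 1.96, 3.03, 1.99 and 2.94 CPM in KO SNI cord, against 2.19, 2.17, 2.14, 1.56 and 1.38 CPM in naive KO cord, and 2.89, 3.7, 2.82 and 3.02 CPM in WT SNI cord, against 3.03, 2.94, 1.77, 2.63 and 2.7 CPM in naive WT cord. The groups overlapped in both genotypes. Top2a had 2.14, 1.87, 2.03 and 2.11 CPM in KO SNI cord, against 1.77, 2.67, 2, 1.08 and 1.65 CPM in naive KO cord, and 2.53, 1.94, 1.97 and 2.44 CPM in WT SNI cord, against 3.07, 2.36, 1.6, 1.94 and 2.39 CPM in naive WT cord. Macrophage genes summed to 345 to 359 CPM in KO SNI cord, against 134 to 164 CPM in naive KO cord, and to 348 to 385 CPM in WT SNI cord, against 159 to 192 CPM in naive WT cord.

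Set against the cord in a fit of all 36 libraries, which puts both tissues on 1 scale, most members were higher in DRG. In naive KO mice, 25 of 39 were higher in DRG and 2 lower, with a median of 0.65, where 37.0% of all 20626 genes were higher and 37.8% lower. In naive WT mice, 35 of 39 were higher and 0 lower, with a median of 1.3, where 40.1% of all genes were higher. The 2 lower in KO were Nusap1, a spindle protein, at -0.43 ± 0.16 and Mcm7 at -0.31 ± 0.09. Kif23 stood out with means of 6.09 CPM in DRG, against 1.04 CPM in cord of naive KO mice (log2 fold change 2.54 ± 0.18, adjusted p = 1.3e-14) and 10.4 CPM in DRG, against 0.702 CPM in cord of naive WT mice (log2 fold change 3.88 ± 0.19, adjusted p = 2.1e-19). Mki67 differed by 1.41 ± 0.32 in naive KO and 2.69 ± 0.29 in naive WT mice, Tk1 by 1.38 ± 0.14 in naive KO and 1.68 ± 0.13 in naive WT mice, and Aurka by 1.28 ± 0.14 in naive KO and 1.58 ± 0.14 in naive WT mice. Hemoglobin genes were all 4 higher in DRG, with medians of 1.38 in naive KO and 2.5 in naive WT. With hemoglobin content as a covariate, 14 members were higher and 4 lower in naive KO mice, and 17 higher and 1 lower in naive WT mice. That fit used 1 slope for both tissues. Within groups, the member score rose by 0.204 per doubling of hemoglobin in DRG and by 0.016 in cord. Hemoglobin content was 190 to 602 CPM in naive KO DRG, against 136 to 170 CPM in naive KO cord. In naive WT mice it was 728 to 3500 CPM in DRG, against 169 to 478 CPM in cord. As these ranges do not overlap, tissue and hemoglobin content cannot be told apart in this covariate fit. Without A2 and A4, 24 members were higher and 1 lower in naive KO mice.

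**Figure D5:**
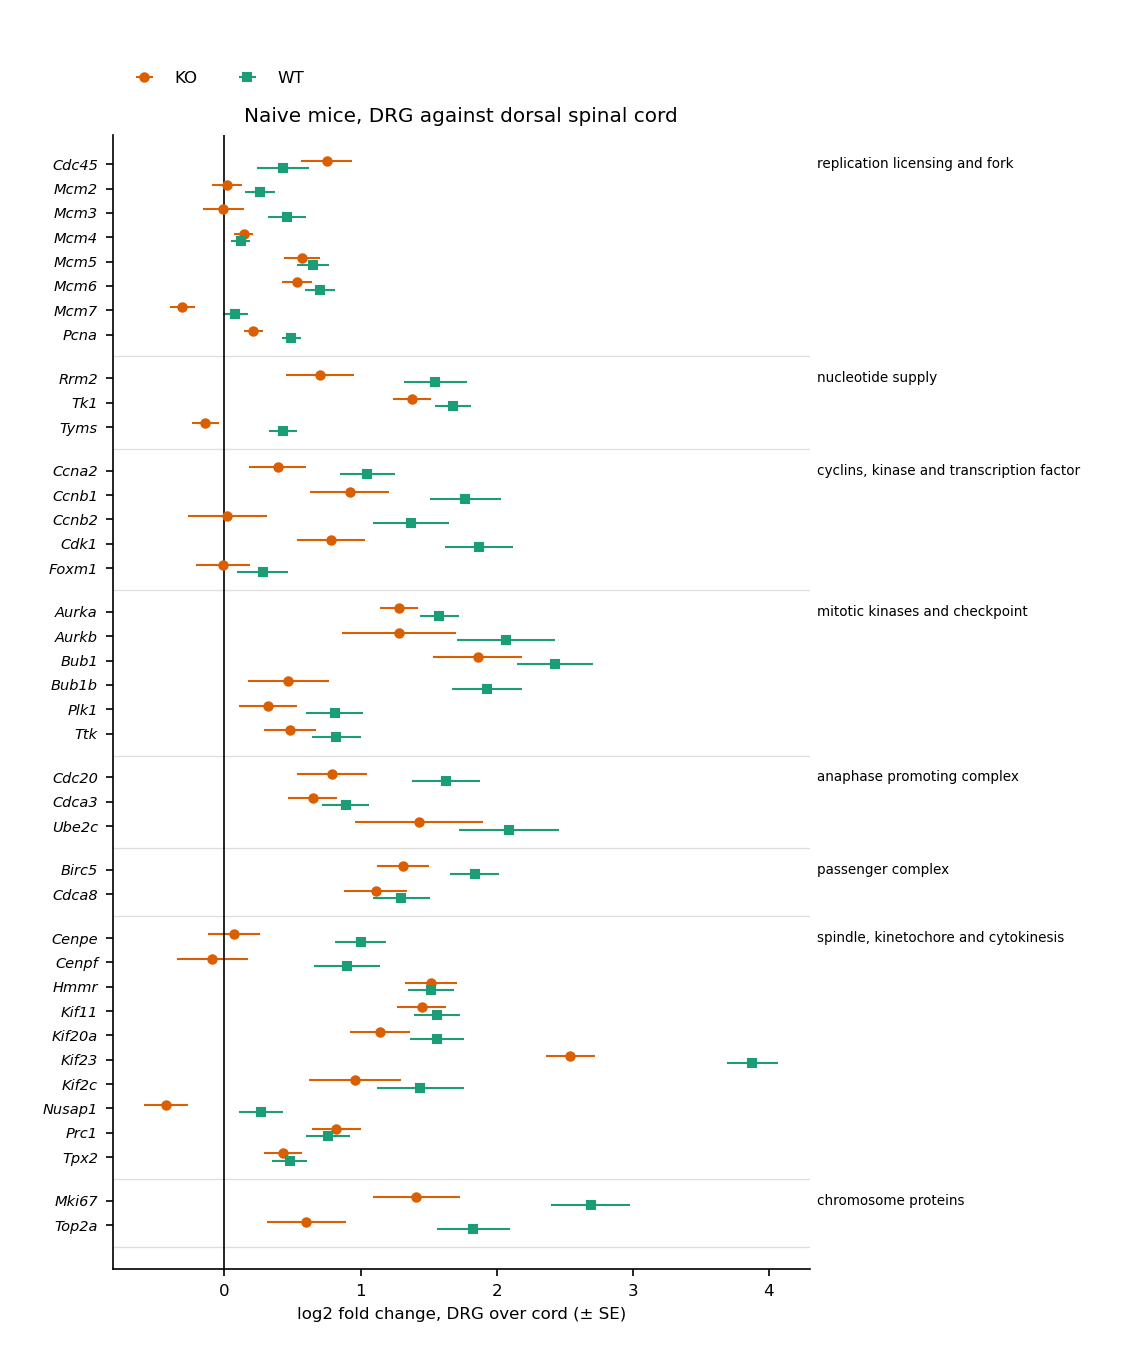
Log2 fold change of DRG over dorsal spinal cord with its standard error for the 39 genes, grouped by role, in naive KO (circles) and naive WT (squares) mice. Kif23 lies farthest right at 2.54 in KO and 3.88 in WT, and 35 of the 39 genes are higher in DRG in WT.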

How the data were processed

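RNA was measured in 36 libraries of mouse DRG and dorsal spinal cord. Per the labels' protocols, RNA came from the RNeasy Plus Universal kit and 1 µg per library went into the TruSeq Stranded mRNA kit. Tools named in the submitters' processing notes are FastQC 0.11.5, HISAT2 and RSEM, with build GRCm38; for the annotation, the strand setting and further versions, these sources say nothing.

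Expected counts deposited by the authors made up the raw table, reads per gene as estimated by RSEM. In its column of WT SNI library E1, of unit other in the deposited record, 9150 cells had decimal commas, read as points, and 1 cell with a letter was restored to 1780.86 from the normalised table. TMM-scaled signal, also deposited by the authors, covered 52999 genes and served only for that repair. Expected counts were rounded for edgeR 4.0.16 (R 4.3.3; TMM, filterByExpr, robust quasi-likelihood F test, Benjamini-Hochberg). Each tissue was fitted alone (18 libraries, 14 residual degrees of freedom; common biological coefficient of variation 0.131 in DRG and 0.0744 in cord), and all 36 together for DRG against cord. Standard errors were the log2 fold change over the square root of F. The procedure was tested on simulated data. Depth was 21.34 to 27.27 M estimated reads, and estimates of low genes carry counting error beside the spread between libraries.

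Members and gene lists were chosen with earlier results of these data known. All 39 members are accounted for. The level of the gene deleted in KO mice is not reported here. Values by library are given for 6 set genes (Mki67, Top2a, Cdk1, Ccnb1, Mcm5 and Pcna), though not in each comparison. They are also given for up to 4 called members with the lowest adjusted p in a comparison. Of other lists up to 3 called genes are named. Genes picked out beyond this rule were chosen after their values were seen, namely Rccd1, Cdc23, Exosc9, Cdk6, pseudogenes and marker genes beside a result. The same holds for Kif2c and Bub1b between KO SNI and WT SNI DRG. Column names carry numbers. Same-numbered naive WT libraries of DRG and cord deviated together (r 0.134 to 0.296 in 5 of 5 pairs), those of naive KO in 4 of 5, and those of KO and WT had r over 0.1 in 1 or 2 of 4 or 5 pairs, so KO and WT were not taken as paired. Alternatives were DESeq2 1.42.0, its size factors, no filter, only the groups compared, blocks by column number and title letter, hemoglobin content as a covariate, and libraries left out. Correlations used numpy 2.4.6 and scipy 1.17.1, figures matplotlib 3.10.9.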

Additional observations from a re-analysis of the deposited data

Results flagged for a closer look

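Of 56 gene and group sets of 4 or 5 libraries examined for a library far from the others, 1 stood out, where chance alone gives about 1 in 20. Ccnb1 in KO SNI DRG was 1.41 CPM in library E2, against 2.12 to 2.22 CPM in the other 3 libraries, a gap of 0.885 of the whole range of the group. E2 also had the lowest hemoglobin content of that group, 372 CPM.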

How the results depend on the processing

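Of 131 log2 fold changes of single members (every called one, and set genes), 10 reversed direction under an alternative. With hemoglobin content as a covariate, naive KO against WT DRG gave 0.02 for Ube2c, 0.03 for Cenpf, 0.03 for Cdc20, 0.05 for Ccnb1, 0.08 for Ccnb2 and 0.10 for Hmmr, SNI against naive DRG in WT gave 0.49 for Mki67 and 0.04 for Pcna, and DRG against cord in naive WT gave -0.26 for Cenpf and -0.03 for Mcm2. With 1 library left out, that injury comparison gave -0.47 to 0.22 for Mki67 (0.22 without C1) and -0.13 to 0.03 for Pcna (0.03 without E1 or F1). The members' median turned to -0.06 for the interaction in DRG with that covariate, and to 0.02 and 0.01 for KO SNI against WT SNI cord without E5 or F8. In naive KO against WT DRG, where 29 members were called, 0 were called with hemoglobin content as a covariate, 17 with the column number as a replicate block, 13 without A2 and A4, and 19 to 31 when 1 library was left out (19 without C1). In KO SNI against WT SNI DRG, where 1 was called, 2 were called with only the groups compared in the fit, 0 with the title letter as a block, 0 with the column number as a replicate block, and 0 to 1 with 1 library left out (0 without E2, E3, E4 or F3). For SNI against naive DRG, WT had 17 with hemoglobin as a covariate, 3 with only the groups compared, and 4 to 10 with 1 library left out (10 without C1), and KO had 8 to 13 with 1 library left out (8 without E4, 9 without A2). In naive KO against WT cord, hemoglobin as a covariate gave 0 and leaving out 1 library 2 to 5; in KO SNI against WT SNI cord that range was 0 to 1. For DRG against cord in naive WT, 18 were called with hemoglobin as a covariate and 32 to 36 with 1 library left out; the replicate block, which pairs tissues there, gave 34. For these pairs in naive KO the block gave 25 calls. The cause of these changes was not tested, except that leaving out libraries also shrinks the groups. DESeq2 and its size factors, and tests without the filter, kept every count of called members within 1.5 times. Members at about 1 CPM or less, such as Bub1b, Aurkb and Kif2c, are limited by depth.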
